A study of Mus musculus with 6 samples.

Results

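The genes described here encode heterotrimeric G protein subunits and regulators of G protein signaling (RGS proteins), measured in the lumbar cord of mice labelled Egr3-deficient or wild type. Members were all probe sets with a single platform gene symbol that names an alpha, beta or gamma subunit or an RGS gene. This gave 124 probe sets of 52 genes, out of 18193 genes with such a symbol in the series, 88 of 44 genes on array type A and 36 of 22 genes on array type B. The choice used symbols only, no measured value. It took in RGS-binding proteins named after their partner (Rgs7bp, Rgs9bp), a beta-like gene (Gnb1l) and the antisense RNA Gnasas1 of the Gnas locus.

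The series compared 3 pools of total RNA, each from 3 cords at postnatal day 27, lumbar segments L3 to L5. Pools 1 and 2 carry the label Egr3-deficient and the third the label wild type. Each pool was hybridised once to array type A and once to array type B. The labels of pool 2 and of the wild-type pool mention acclimatization and that of pool 1 does not. The labels used here give no allele, strain or sex, and since whole segments were pooled, fewer cells of a type and less RNA per cell cannot be told apart. The title of the series names fusimotor neurons, the motor neurons of muscle spindles, as the cells of interest.

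A G protein couples a receptor at the membrane to the inside of the cell. The receptor makes the alpha subunit exchange GDP for GTP, and alpha and the beta-gamma pair then act separately on effectors such as adenylyl cyclase, phospholipase C beta and potassium channels. RGS proteins speed up GTP hydrolysis by alpha subunits of the Gi and Gq families and so end the signal. In the spinal cord these proteins serve, among others, the receptors for opioids, GABA, noradrenaline, serotonin and acetylcholine.

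Egr3, a zinc finger transcription factor, belongs to a family that binds GC-rich sites of the form GCGNGGGCG. RefSeq promoters (assembly GRCm38.p6, 250 bases before to 50 bases after the start) matched 38 of the 52 genes and gave 51 promoters. These letters, searched on both strands, occurred in 5 of 51 (9.80%), those of Gnai1, Gnas, Gng12, Rgs19 and Rgs2, against 5.55% of all 32851 promoters. The shorter GC box GGGCGG occurred in 27 of 51 (52.9%, against 35.7% of all) and the cyclic AMP response element TGACGTCA in 0 of 51 (against 1.79%). The longer site can overlap a GC box and does so in Gnai1 and Gng12. The promoters shown are those of 4 genes whose readings were lower in both Egr3-deficient pools (Rgs7bp, Rgs17, Gnai1, Gng12), chosen after their values were seen. They are given 5′ to 3′ on the gene's strand, and capitals mark a match to GCGNGGGCG on either strand.
Rgs7bp, chr13:105054881-105055180, minus strand: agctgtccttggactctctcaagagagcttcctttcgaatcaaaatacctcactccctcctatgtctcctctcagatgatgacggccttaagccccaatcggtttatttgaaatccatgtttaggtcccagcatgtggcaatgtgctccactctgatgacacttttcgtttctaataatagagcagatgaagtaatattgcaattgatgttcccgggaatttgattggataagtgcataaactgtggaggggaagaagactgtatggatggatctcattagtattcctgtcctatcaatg
Rgs17, chr10:5922351-5922650, minus strand: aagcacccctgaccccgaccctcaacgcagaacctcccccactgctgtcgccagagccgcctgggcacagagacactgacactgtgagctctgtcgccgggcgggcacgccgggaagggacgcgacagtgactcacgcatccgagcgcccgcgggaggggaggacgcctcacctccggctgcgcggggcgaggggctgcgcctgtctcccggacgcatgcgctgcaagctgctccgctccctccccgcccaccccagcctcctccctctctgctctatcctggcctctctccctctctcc
Gnai1, chr5:18360364-18360663, minus strand: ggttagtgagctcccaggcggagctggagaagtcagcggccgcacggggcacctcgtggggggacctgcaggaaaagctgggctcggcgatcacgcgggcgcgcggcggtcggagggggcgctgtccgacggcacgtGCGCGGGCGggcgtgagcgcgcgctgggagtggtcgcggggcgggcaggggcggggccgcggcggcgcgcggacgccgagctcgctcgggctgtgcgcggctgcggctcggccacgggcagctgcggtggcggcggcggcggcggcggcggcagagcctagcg
Gng12, chr6:66896147-66896446, plus strand: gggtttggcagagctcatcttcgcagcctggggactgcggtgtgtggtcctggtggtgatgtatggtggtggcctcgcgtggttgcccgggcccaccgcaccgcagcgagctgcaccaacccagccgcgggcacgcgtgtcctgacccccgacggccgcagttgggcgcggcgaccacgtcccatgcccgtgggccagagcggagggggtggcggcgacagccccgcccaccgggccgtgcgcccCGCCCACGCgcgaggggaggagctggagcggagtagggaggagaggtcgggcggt
The genes shown were picked to include windows both without and with a match, so the split between them was set by the choice. The windows of Rgs7bp and Rgs17 hold no match, and those of Gnai1 and Gng12 hold 1 match each. A second Gng12 promoter, chr6:66896641-66896940, holds 0 matches and is not shown. The Rgs7bp window is 42.7% G and C, and the other 3 are 71.0%, 80.0% and 74.0%, in the order printed. A match is a stretch of letters and not a measured site, and a missing match says nothing of the factor.

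Values are the deposited linear intensities, and differences are Egr3-deficient minus wild type on the log2(intensity + 16) scale after quantile normalization, the mean of both pools, which understates changes of dim genes. A probe set was tested (kept) where its mean lay at or above the 40th percentile of its array type, about 36.7 intensity units on A and 55.9 on B. Tests were limma with Benjamini-Hochberg adjustment over all kept probe sets of the array type and a threshold of 0.05. Both pools were compared with the same wild-type pool, which has no replicate, so that its own spread is unknown and enters every difference. Of the members, 92 probe sets of 42 genes were kept, 61 of 35 genes on A and 31 of 19 genes on B. The 10 genes with no kept probe set were Gna15, Gnasas1, Gnb1l, Gnb3, Gngt1, Rgs1, Rgs13, Rgs18, Rgs6 and Rgs9bp. They include the retinal forms Gnb3, Gngt1 and Rgs9bp and the blood-cell forms Gna15, Rgs1, Rgs13 and Rgs18.

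Several facts of the whole series bear on these values. Egr3 read 24.9 and 52.7 in Egr3-deficient pools 1 and 2 and 40.6 in wild type on A (a difference of 0.01 log2 units, adjusted p = 0.986), and 210 and 107 against 75.3 on B (a difference of 1.03 log2 units, adjusted p = 0.348). The mean log2 difference of Egr3 was not negative on either array type. The mean of the deposited Egr3 readings was slightly below wild type on A and above it on B. Pool 1 on A was the only Egr3 reading below wild type. These readings do not settle the genotype, and Egr3-deficient is used here only as a pool name. Of 13 kept skeletal muscle genes on A, 13 lay above wild type in both pools, with sums of 5872 and 7231 against 1053. Liver markers summed to 412 and 10620 against 128. The 3'/5' ratio of the 18S control was 2.27 and 1.08 against 0.0493 on A, and 1.43 and 0.945 against 0.0605 on B. Their part in the results below was not tested. Scaling on the 100 probe sets that A and B have in common (the shared scaling) moved the median difference of all kept probe sets on B to -0.66, so signs on B are relative to the scaling used.

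Across the family 1 probe set passed the test, Rgs7bp on B, which was lower in the Egr3-deficient pools. On A, 0 of 61 members were called higher and 0 lower, where limma called 0.0663% of all kept probe sets higher and 0% lower. On B, 0 of 31 were called higher and 1 lower, where 1.02% of all were called higher and 0.607% lower. At an unadjusted p under 0.05, 3 members were higher on A and 10 lower, with a background of 7.93% and 12.7%, and on B 0 were higher and 4 lower, with a background of 7.4% and 6.83%. The 10 on A belong to 8 genes, Rgs17, Rgs5, Gnai3, Gnai1, Gng2, Gng12, Gnas and Rgs4. At least 2-fold from wild type in both pools were 0 higher and 2 lower members on A (Rgs17 and 1 Rgs5 probe set; background 1.2% and 4.35%). On B there were 0 higher and 1 lower (Rgs7bp; background 4.27% and 1.8%). With pool 2 left out, 2 members were at least 2-fold higher and 12 lower on A, where 5.21% and 12.1% of all kept probe sets were. On B 3 were higher and 7 lower, where 10.5% and 12.7% of all were.

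More members lay below wild type in both pools than above it, except on B with median centring. On A, 20 were above in both (32.8%, against 47.9% of all kept probe sets) and 30 below (49.2%, against 34.8%). On B, 10 were above (32.3%, against 38.9%) and 15 below (48.4%, against 36.6%). The members' median log2 difference was -0.13 on A, where that of all kept probe sets was 0.11, and -0.26 on B, where it was near 0 (6.3e-05). With median centring in place of quantile normalization 11 members on B were above and 11 below, with a median of 0.01. Under the shared scaling 1 was above and 26 below. Members of 1 gene share their transcript, so these counts are not of independent items.

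**Figure D1:**
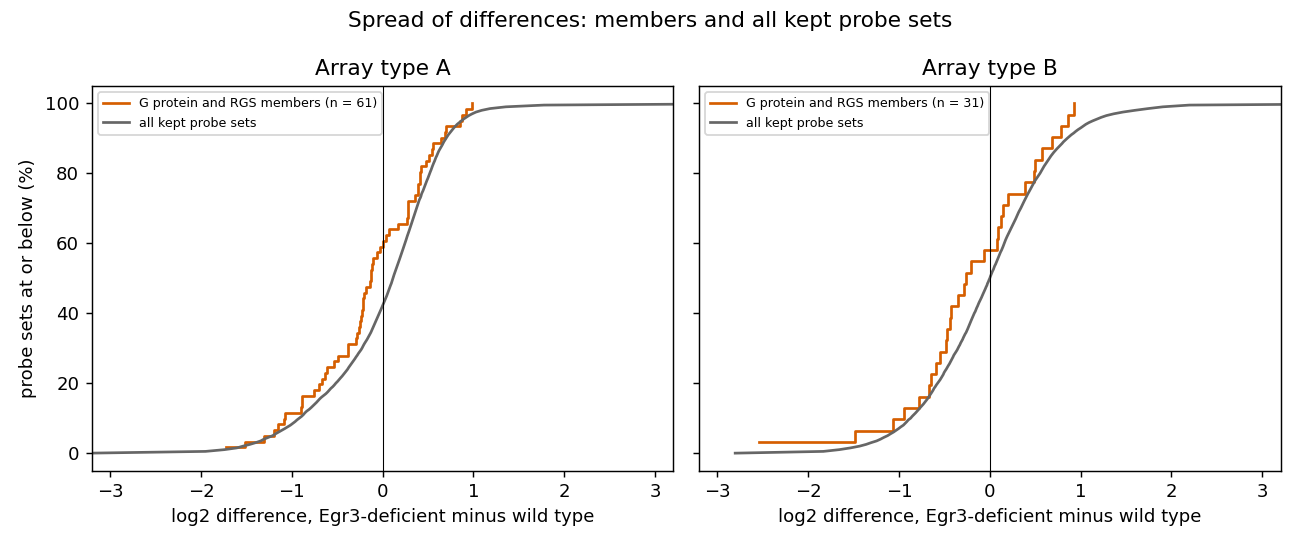
Cumulative share of kept probe sets (vertical axis) by log2 difference, Egr3-deficient minus wild type (horizontal axis), for the members and for all kept probe sets on each array type. The members' median of -0.13 on array type A stands left of 0.11 for all, and the axis leaves out the most extreme of all probe sets.

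The Gi family of alpha subunits, which inhibit adenylyl cyclase, differed between its members. All 3 kept probe sets of Gnai1 lay below wild type in both pools. The brightest (1454959_s_at) read 570 and 827 in Egr3-deficient pools 1 and 2, against 1478 in the wild-type pool. Its log2 difference was -1.20 with an SE of 0.31 (adjusted p = 0.161). A second (1427510_at) read 70.6 and 93.9 in the Egr3-deficient pools, against 176 in wild type (log2 difference -0.89). Of all kept probe sets on A, 34.8% also lay below wild type in both pools, and none of the 3 for Gnai1 passed the threshold. Gnai3, whose product is close to that of Gnai1, read 73.1 and 208 in the Egr3-deficient pools, against 346 in wild type (a difference of -1.30 log2 units, SE 0.50, adjusted p = 0.211).

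Gnai2, a widely expressed Gi form, lay on the other side of wild type. Its probe set 1435652_a_at read 693 and 766 in the Egr3-deficient pools, against 388 in wild type (a difference of 0.87 log2 units, SE 0.27, adjusted p = 0.174). The second probe set read 310 and 200 against 173 (log2 difference 0.54). Both Egr3-deficient pools lay above wild type on both probe sets. Gnao1, the abundant Go alpha of neurons, had 1 of 3 probe sets kept. That one read 259 and 412 against 379, with the pools on either side of wild type (log2 difference -0.18). The dim ones not kept read above wild type in both pools (77.8 and 35.2 against 12.2, and 33.3 and 24.9 against 23.4). Gnaz, a Gi relative with slow GTP hydrolysis, read 281 and 144 against 109 on B (a difference of 0.93 log2 units, adjusted p = 0.366), and on A 276 and 136 against 152. Pool 2 was thus above wild type on B and below it on A, and pool 1 was above on both. The 8 kept probe sets of this class on A had a median of -0.42, from -0.31 to -0.43 under the other 3 scalings.

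The stimulatory alpha subunits raise cyclic AMP. Gnas, the general Gs alpha, read 3988 and 4665 in the Egr3-deficient pools, against 4106 in wild type, on its brightest probe set (log2 difference -0.03), a sign that turned to 0.07 without quantile normalization. Its other kept probe sets, both dim, read below wild type in both pools. They read 19.6 and 42.5 against 75.1 on A (a difference of -0.89 log2 units, adjusted p = 0.233) and 36.8 and 105 against 116 on B (log2 difference -0.55). On each of these, pool 1 lay under the filter cut. Of those not kept, 1421740_at read above wild type in both pools (40.9 and 24.6 against 16.8) and 1427789_s_at below (27.6 and 22.4 against 33.2). The locus makes several transcripts, which the platform symbol does not separate. Gnal encodes Golf alpha, the form of olfactory neurons and striatum. Of its 3 probe sets on B, 1442021_at read 345 and 451 against 758 in wild type (a difference of -1.07 log2 units, SE 0.43, adjusted p = 0.21). The other 2 differed by 0.13 and 0.09, and under the shared scaling by -0.38 and -0.57, so their sign depends on the scaling.

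The Gq class activates phospholipase C beta. Gna11 lay above wild type in both pools on both probe sets, with 400 and 392 in the Egr3-deficient pools against 245 in wild type (a difference of 0.68 log2 units, SE 0.29, adjusted p = 0.241) and 309 and 244 against 177 (log2 difference 0.65). Gnaq shares this function. The log2 differences of its 7 kept probe sets ranged from -0.64 to 0.15, and the brightest (1455729_at) read 631 and 903 against 1046 (a difference of -0.64 log2 units, adjusted p = 0.502). On 1428938_at the pools split, with 255 in pool 1 and 610 in pool 2 against 512 in wild type. Gna14, the genomic neighbour of Gnaq, read 114 and 126 against 187 on B (log2 difference -0.47). None of the 11 kept probe sets of this class passed the test.

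Gna12 and Gna13 encode the alpha subunits that signal to the actin cytoskeleton. The probe sets of Gna13 disagreed in sign. On 1430295_at the Egr3-deficient pools read 133 and 117, against 67.7 in wild type (a difference of 0.85 log2 units, SE 0.33, adjusted p = 0.214). On 1422556_at they read 89.1 and 132, against 199 (a difference of -0.70 log2 units, adjusted p = 0.285), and on 1453470_a_at 40.4 and 31.9, against 64.8 (log2 difference -0.53). The last probe set was dim, with pool 2 under the filter cut of about 36.7. No direction can be given for the gene. On B its probe set read 1072 and 1094 against 878, with a log2 difference of 0.08 that turned to -0.28 under the shared scaling. The brightest Gna12 probe set read 334 and 338 against 281 (log2 difference 0.27), and the other 2 lay within -0.12 to 0.04.

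The beta subunits had small differences. Their 8 kept probe sets ranged from -0.29 to 0.39, and none had an unadjusted p under 0.05. Gnb1, the main beta subunit of brain, read 1189 and 1196 in the Egr3-deficient pools against 1302 in wild type (a difference of -0.26 log2 units, adjusted p = 0.525). Gnb5 pairs with R7 RGS proteins rather than with gamma subunits. It read 365 and 405 against 317 on A (log2 difference 0.28) and 148 and 126 against 113 on B (log2 difference 0.39, which turned to -0.33 under the shared scaling).

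Gamma subunits anchor the beta-gamma pair to the membrane. Their median was 0.42 on A and 0.34 on B, and on B it turned to -0.17 under the shared scaling, while all probe sets there stood at -0.66. On A 6 of 10 kept probe sets were above wild type in both pools, while 3 were below. Gng4, a gamma of neurons, read 54.1 and 46.2 in the Egr3-deficient pools, against 19.5 in wild type (a difference of 0.98 log2 units, SE 0.34, adjusted p = 0.191). The mean of this probe set lay at the 40.9th percentile, just over the filter. Its wild-type reading lay under the cut of about 36.7, so it was kept through the Egr3-deficient readings. The other Gng4 probe sets differed by 0.42 on A and 0.20 on B, the latter turning to -0.16 under the shared scaling. Gng10, a widely expressed form, read 396 and 322 against 220 (a difference of 0.70 log2 units, adjusted p = 0.252). The neuronal Gng3 read 2044 and 2220 against 1405 (log2 difference 0.41), and Gng11 read 943 and 698 against 529 (log2 difference 0.56). On these 4 genes every kept probe set on A read higher in both Egr3-deficient pools than in wild type, and none passed the test.

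On B, Gng7, a partner of Golf alpha in striatum, read 327 and 357 against 199 (a difference of 0.79 log2 units, adjusted p = 0.441). Gngt2, the gamma of cone photoreceptors, read 102 and 105 against 74.7 on B (log2 difference 0.58, -0.18 under the shared scaling). Gng8 split the pools, with 359 in pool 1 and 150 in pool 2 against 170 in wild type.

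Gng12 and Gng2 were the gamma genes with the lowest log2 differences. Gng12, widely expressed and known in glia, read 152 and 215 in the Egr3-deficient pools, against 406 in wild type (a difference of -1.07 log2 units, SE 0.33, adjusted p = 0.173). Its second probe set read 192 and 186 against 311 (log2 difference -0.64). Both pools lay below wild type on both. Gng2 was below in both pools on 3 of 4 probe sets, among them 19.6 and 53.6 against 102 on A (a difference of -1.15 log2 units, adjusted p = 0.199) and 265 and 465 against 641 on B (a difference of -0.95 log2 units, adjusted p = 0.304). On the remaining one it read 67.1 and 98.5 against 89.2, which differs by 0.0048 on the log2 scale. The pool 1 reading of 19.6 lay under the filter cut of about 36.7.

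**Figure D2:**
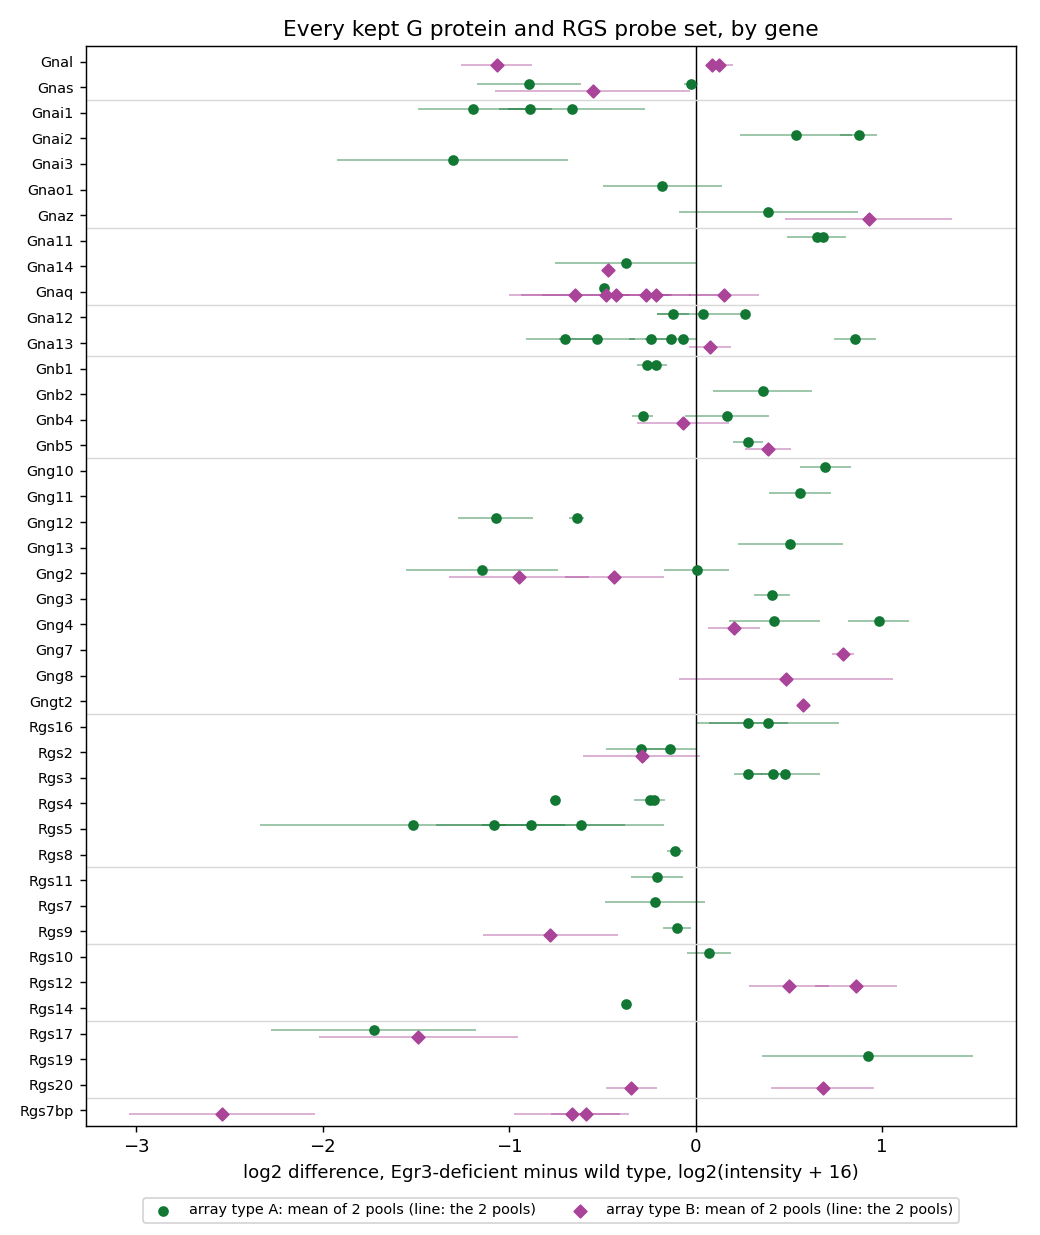
Log2 difference, Egr3-deficient minus wild type (horizontal axis), for every kept probe set by gene and in order of role, with circles for array type A and diamonds for array type B. Each mark is the mean of the 2 Egr3-deficient pools and its line joins the 2 pools. Rgs7bp lies farthest left at -2.54, and Gna13 has marks on both sides of 0.

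Rgs7bp encodes the palmitoylated protein that holds R7 RGS proteins and their partner Gnb5 at the membrane of neurons. On 1458534_at it read 107 and 246 in Egr3-deficient pools 1 and 2, against 952 in the wild-type pool. It fell by 2.54 on the log2 scale (SE 0.46, adjusted p = 0.00126), and the log2 difference was -3.04 in pool 1 and -2.04 in pool 2. The call was lost without quantile normalization (adjusted p = 0.0958), without the filter (0.455), without the intensity trend (0.141) and under the shared scaling (0.335). The direction held in all of them, but leaving out the filter or the trend cannot change the log2 difference. On B the prior carries 52.3 degrees of freedom against 1 from the pools, so the SE hardly measures the spread between these pools.

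The other 2 probe sets of Rgs7bp differed less. The probe set 1437559_at read 548 and 815 in the Egr3-deficient pools, against 932 in wild type (a difference of -0.67 log2 units, adjusted p = 0.492). The brightest, 1436876_at, read 795 and 950 against 1126 (a difference of -0.59 log2 units, adjusted p = 0.539). All 3 lay below wild type in both pools, and the size differed between them. The platform symbol does not say which transcripts each probe set covers.

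The R7 proteins themselves, which Rgs7bp and Gnb5 hold, showed no call. Rgs7 read 169 and 261 in the Egr3-deficient pools against 256 in wild type (log2 difference -0.22). Rgs11 read 81.4 and 71.3 against 97.3 (log2 difference -0.21). Rgs9 read 94.9 and 90.6 against 108 on A (log2 difference -0.10) and 41.4 and 88.3 against 133 on B (a difference of -0.78 log2 units, adjusted p = 0.637). On B its pool 1 reading lay under the filter cut of about 55.9. Rgs6 had no kept probe set. All 4 kept R7 probe sets had negative log2 differences between -0.10 and -0.78, while those of Gnb5 were positive in the scaling used.

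Rgs17 belongs to the RZ group, which acts on Gz and Gi alpha and is known as a regulator of opioid receptors in brain. On A it read 64.2 and 168 in the Egr3-deficient pools, against 401 in wild type (a difference of -1.73 log2 units, SE 0.47, adjusted p = 0.161). On B it read 260 and 582 against 1013 (a difference of -1.49 log2 units, SE 0.44, adjusted p = 0.0643). Both pools lay below wild type on both array types, pool 1 farther, and the adjusted p missed the threshold on each. Across alternatives it ran between 0.00405 and 0.337 on A and between 0.0235 and 0.474 on B. The array types measured the same 3 pools, so B is no independent repeat of A. 

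The other RZ genes differed from Rgs17. Rgs19 read 149 and 64.2 in the Egr3-deficient pools, against 48.6 in wild type (a difference of 0.92 log2 units, adjusted p = 0.307). Rgs20 had probe sets of opposite sign, 99.1 and 163 against 84.9 (log2 difference 0.68, -0.07 under the shared scaling) and 85.7 and 116 against 145 (log2 difference -0.34). No common direction held across the RZ group.

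Neuronal markers were measured beside these neuronal genes. Those of motor neurons and cholinergic cells were mixed. Of the 2 kept on A, Slc18a3 lay above wild type in both pools (log2 difference 0.43) and Prph below (-0.34). The only one kept on B, Chat, lay above in both pools (0.74). Of the general neuronal markers on A, 6 of 8 lay below wild type in both pools and 2 above, with a median log2 difference of -0.50. Their deposited sums were 11079 and 12848 in the Egr3-deficient pools against 16843 in wild type. On B 3 of 5 were below and 1 above after quantile normalization, with a median of -0.41, while their deposited sums were 21959 and 23292 against 20632. Among the 3, Nefl read above wild type in both pools as deposited (11605 and 10839 against 10019). Its log2 difference after normalization was -0.53. Glial markers were lower in part as well. Of astrocyte markers, 4 of 7 kept on A were below in both pools and 2 above, and on B 3 of 4 and 0. Of oligodendrocyte markers, 2 of 5 kept on A were below and 1 above, with a median of 0.06, and on B 1 of 2 and 0. Of all kept probe sets, 34.8% lay below in both pools and 47.9% above on A, and 36.6% and 38.9% on B. On B limma called 2 astrocyte, 1 oligodendrocyte and 0 neuronal markers lower, where it called 0.607% of all kept probe sets lower. The part of these markers in the readings of Rgs7bp, Rgs17 and Gnai1 was not tested.

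The R4 group holds the small RGS proteins. Rgs5, a regulator of Gi and Gq best known from pericytes and vascular smooth muscle, had 4 kept probe sets, all on A and all below wild type in both pools. They read 49.9 and 206 in the Egr3-deficient pools, against 348 in wild type, on 1420941_at (a difference of -1.52 log2 units, SE 0.60, adjusted p = 0.222). On 1420940_x_at they read 42.0 and 54.7, against 129 (a difference of -1.08 log2 units, SE 0.33, adjusted p = 0.172). On 1417466_at they read 167 and 360, against 480 (a difference of -0.89 log2 units, adjusted p = 0.286). The fourth, 1420942_s_at, differed by -0.62. Pool 1 lay farther from wild type than pool 2 on all 4, and none passed the threshold.

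Other pericyte and smooth muscle markers were mixed. Of 7 kept on A, 4 were above wild type in both pools, while 1 was below, with a median of 0.31 and sums of 1695 and 1769 in the Egr3-deficient pools against 1288 in wild type. On B the only kept marker, Abcc9, read 278 and 245 against 292 (log2 difference -0.14). None of the 11 on A is listed at 0. The sum includes smooth muscle genes and Vtn, which liver also makes, and the pericyte receptor Pdgfrb read 174 and 111 against 150. Their part in the Rgs5 readings was not tested.

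Rgs4, a neuronal RGS gene next to Rgs5 in the genome, had 3 kept probe sets, all below wild type in both pools. The lowest was 1448285_at, which read 82.2 and 85.5 in the Egr3-deficient pools, against 163 in wild type (a difference of -0.76 log2 units, SE 0.32, adjusted p = 0.241). The others differed by -0.25 and -0.23. Rgs3 had 3 probe sets above wild type in both pools, from 0.28 to 0.48. Rgs16 differed by 0.28 and 0.38, and Rgs2, an immediate early gene that acts on Gq, by -0.14 to -0.29 over 3 probe sets (0.07 on B with median centring). Over the 15 R4 probe sets on A the median was -0.23, with 9 below wild type in both pools and 5 above.

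In the R12 group, both kept probe sets of Rgs12 on B lay above wild type in each pool in the scaling used. On 1453129_a_at it read 536 and 372 in the Egr3-deficient pools against 239 in wild type (a difference of 0.86 log2 units, adjusted p = 0.371). Under the shared scaling this difference was 0.28. On 1429380_at it read 78.4 and 59.9 against 52.6 (log2 difference 0.50, -0.27 under the shared scaling). Rgs10, known from microglia, read 373 and 312 against 326 (log2 difference 0.07), and Rgs14 read 71.5 and 77.3 against 109 (log2 difference -0.38). Of 6 kept microglial markers on A, 4 were above wild type in both pools, while 2 were below.

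**Figure D3:**
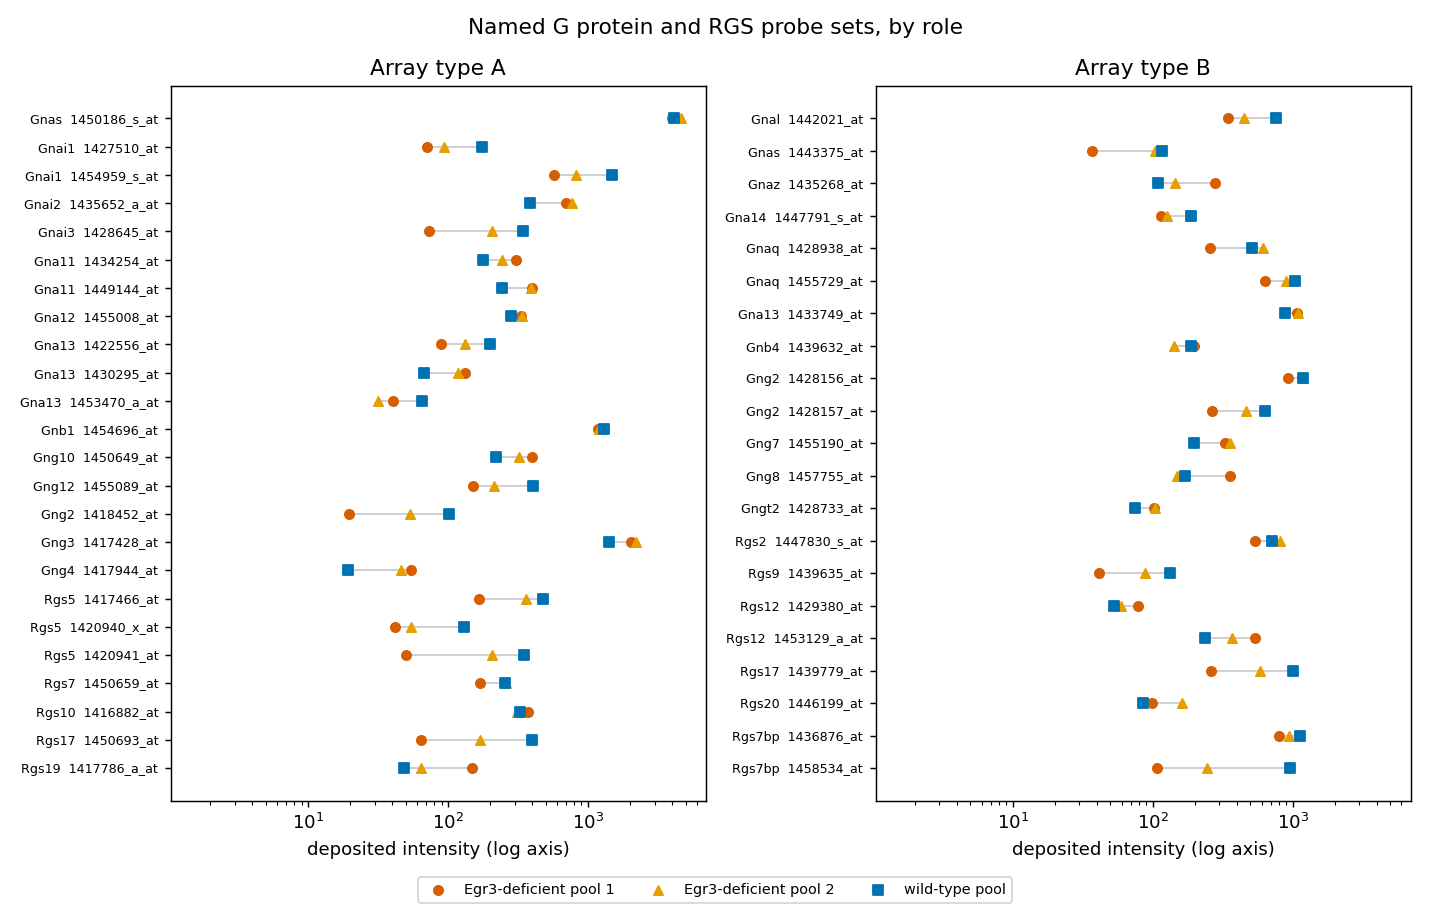
Deposited intensity on a log axis (horizontal) of the probe sets chosen by the naming rule, by role from top to bottom, on array type A (left) and B (right). Circles are Egr3-deficient pool 1, triangles Egr3-deficient pool 2 and squares the wild-type pool. On Rgs7bp 1458534_at the Egr3-deficient pools read 107 and 246 and wild type 952.

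Genes with several probe sets can be compared within the gene, although all probe sets measured the same pools. Of 26 genes with at least 2 kept probe sets, 19 had all log2 differences on 1 side, 11 of them lower and 8 higher. Of 12 genes kept on both array types, 8 had all kept probe sets on 1 side across both. No share over all genes stands beside these counts, so they cannot be set against a background. Some of the signs turned with the scaling, as for Gnas and Gnb5. Among members that lay on the same side of wild type in both pools, pool 1 was farther from wild type in 35 of 50 on A and in 21 of 25 on B. The same held for 70.6% of all such probe sets on A and 68.9% on B. Pool 1 is the pool whose label lacks the remark on acclimatization, and pool and label cannot be told apart.

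The proteins upstream and downstream of these subunits were read from a list of effectors and regulators, with only the brightest probe set of each gene per array type. On A, 28 of 41 genes were kept, of which 17 lay above wild type in both pools, whereas 7 lay below. Of all kept probe sets on A, 47.9% lay above in both and 34.8% below. Their median log2 difference was 0.20, where that of all kept probe sets was 0.11. On B, 23 of 26 were kept, 8 above and 14 below, with a median of -0.24. Of all kept probe sets on B, 38.9% lay above and 36.6% below, with a median near 6.3e-05. None was called by limma in either direction, and at an unadjusted p under 0.05, 1 was higher and 2 lower on A, and 2 higher and 5 lower on B. The background at that unadjusted p was 7.93% higher and 12.7% lower on A, and 7.4% and 6.83% on B. The genes named from the list were chosen after their values were seen.

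Of the phospholipases that Gq alpha activates, Plcb4 and Plcb1 read below wild type in both pools on B. Plcb4 read 706 and 1115 in the Egr3-deficient pools, against 1617 in wild type (a difference of -1.10 log2 units, adjusted p = 0.147), and Plcb1 607 and 896 against 1289 (a difference of -1.04 log2 units, adjusted p = 0.186). On A the brightest probe sets of Plcb1 and Plcb3 had log2 differences of 0.08 and 0.07. Snx13, a sorting nexin that carries an RGS domain, read 309 and 560 against 961 (a difference of -1.34 log2 units, adjusted p = 0.0945). Ccdc88a, which encodes girdin, an activator of Gi alpha outside the receptor cycle, read 45.9 and 136 against 290 on A (a difference of -1.59 log2 units, adjusted p = 0.173). On B it read 92.7 and 234 against 392 (a difference of -1.31 log2 units, adjusted p = 0.151). Both pools were below wild type for Snx13 and Ccdc88a, with pool 1 the lower.

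Other regulators had positive log2 differences. The receptor kinase Grk6 read 1481 and 667 in the Egr3-deficient pools, against 381 in wild type on B (a difference of 1.19 log2 units, adjusted p = 0.147). On A it read 95.6 and 71.0 against 75.5, with the pools on either side of wild type (log2 difference 0.20). The adenylyl cyclase Adcy9 read 233 and 243 against 116 on B (a difference of 1.06 log2 units, adjusted p = 0.258), but 267 and 196 against 226 on A (log2 difference 0.06). Rap1gap, a GTPase activator that binds Gi-family alpha subunits, read 671 and 737 against 400 on A (a difference of 0.79 log2 units, adjusted p = 0.191). None of these passed the threshold.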

How the data were processed

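The members and gene lists were chosen with earlier results of these data known. The deposited values, made by the authors, are linear intensities (1 for each probe set of an array), found here to be scaled to a trimmed mean near 150.1 on A and 150.0 on B. The probe-level program was not given in the sources used here. No detection call was used. The 64 control probe sets per array type were left out. Gene symbols came from the platform annotation, and all 124 member symbols matched RefSeq (GRCm38.p6). Probe sets with several symbols were not members (3 on A).

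Each array type was analysed alone with log2(intensity + 16), quantile normalization over 3 arrays, the 40th percentile filter, and limma 3.58.1 in R 4.3.3 (lmFit, eBayes with trend), 2 Egr3-deficient pools against 1 wild-type pool. The 1 residual degree of freedom comes from those 2 pools, and the wild-type pool is assumed to vary like them. P values rest on the spread between those pools and, more heavily, on the prior across all probe sets (prior degrees of freedom of 6.54 for A and 52.3 for B). Precision is limited by how few arrays there are.

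Named with values, per array type, were probe sets past the threshold, the 6 higher and 6 lower members with the largest smaller-of-2 difference, the brightest of each class, genes with opposite differences over 0.5, and the 4 members whose pools differed most. Other genes given were chosen after their values were seen. For the effector and cell type lists, only the brightest probe set of each gene per array type was read. Alternatives were other normalizations, pseudocounts, filters, eBayes settings, adjustment over both array types and each Egr3-deficient pool left out. Scaling on shared probe sets and keeping control probe sets in the normalization were chosen after seeing the data.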

Additional observations from a re-analysis of the deposited data

How the results depend on the processing

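For the 45 probe sets of the naming rule, 467 of 486 tested values under alternatives kept their sign and side of the threshold, 10 turned sign, 4 lost and 5 gained a call. The filter, eBayes and adjustment alternatives leave the log2 difference as it was, so no sign could turn under them. Only 1 of the 45 had a call to lose. Lower calls on A numbered 2 with median centring (Rgs17, adjusted p = 0.00405, and Rgs5 1420941_at, 0.0137). Lower calls on B, 1 in the report, numbered 0 without quantile normalization, without filter, without trend and under shared scaling, and 2 with a pseudocount of 64, the 60th percentile filter and robust eBayes, the second being Rgs17 (0.0320, 0.0279 and 0.0235). Members at least 2-fold higher in both pools on A numbered 1 with a pseudocount of 1. Those at least 2-fold lower on A, 2 in the report, numbered 1 with median centring, the 60th percentile filter and shared scaling, and 0 with a pseudocount of 64, and on B, 1 in the report, 3 with shared scaling. Leaving out 1 Egr3-deficient pool gave 0 to 2 higher and 2 to 12 lower on A, and 0 to 3 higher and 1 to 7 lower on B, the higher numbers each without pool 2. With that pool out, 1 pool stood alone and no test was made. The members' median on A was -0.20 without quantile normalization and with shared scaling (-0.199), -0.079 with median centring and -0.051 without filter, and on B -0.73 with shared scaling, where all kept probe sets stood at -0.66. Calls over all probe sets on B were 138 higher and 82 lower, and 119 and 22 with median centring, and on A 9 and 0, and 227 and 597.

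Among these 45, tested differences that turned sign were Gnas 1450186_s_at on A (0.071 without quantile normalization and with shared scaling, 0.19 with median centring), on B with shared scaling Gngt2 (-0.18), Rgs12 1429380_at (-0.27), Rgs20 1446199_at (-0.069), Gna13 1433749_at (-0.28) and Gng8 (-0.16), and on B with median centring Gnb4 (0.014) and Rgs2 (0.068). With a pool left out, 8 of 90 values, which have no test, turned sign: without pool 1 Gnas 1450186_s_at (0.012), Rgs10 (-0.048) and Rgs7 (0.049) on A and Rgs2 (0.024), Gnaq 1428938_at (0.14) and Gng8 (-0.088) on B, and without pool 2 Gna13 1433749_at (-0.035) and Gnb4 (0.18) on B. The cause was not tested. No paired analysis was possible because the wild-type group holds 1 pool.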

Other observations

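Several members lie next to each other in the genome, with no other protein-coding gene between them in the RefSeq table. The pairs with kept probe sets for both are Rgs8 and Rgs16, Rgs5 and Rgs4, Rgs9 and Gna13, and Gnaq and Gna14. Rgs5 and Rgs4 were below wild type in both Egr3-deficient pools on all 7 kept probe sets. Rgs8 differed by -0.11 and Rgs16 by 0.28 and 0.38. In the 2 chains of Rgs2, Rgs13 and Rgs1, and of Gna15 and Gna11, only Rgs2 and Gna11 had kept probe sets, and so did only Gng11 beside Gngt1. These values were picked after they were seen and were not tested as pairs.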
